A study of Mus musculus with 9 samples.

Results

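Single cells of the mouse paraventricular nucleus were compared by whether a transcript of Crh, the gene of corticotropin-releasing hormone, was counted in them. Cells with at least 7000 gene molecules were kept, which gave 7 of the 9 cells of the series. Of these, 4 cells had at least 1 Crh molecule (cells 3, 5, 8 and 9, called Crh-detected), and 3 had none (cells 2, 4 and 7, called Crh-undetected). All cells carry one label, secretagogin-positive, and came from C57Bl6/N mice 21 to 28 days old, with no treatment, genotype or sex named. The cells were freed from slices of the nucleus with papain and captured singly on a microfluidic chip. No label ties a cell to an animal, so the cells cannot be counted as independent animals. Members were chosen by measured values, the gene molecules and the Crh molecules of each cell, and no p-value is given anywhere. All differences are descriptions of these 7 cells, and Crh itself is left out of them.

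Neurons that make corticotropin-releasing hormone start the endocrine stress response: the peptide is released from the median eminence and drives corticotropin release from the pituitary. As for other peptide hormones, the precursor enters the endoplasmic reticulum (ER) while it is being translated, is folded there, is sorted into dense-core granules and is cut by prohormone convertases. Secretagogin, encoded by Scgn, is a calcium sensor that acts in the release step. Granins, chaperones of the convertases and the ER entry machinery are therefore genes of interest when peptide neurons are described.

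The counts that set the sides were low. Cell 9 held 19 Crh molecules and cell 5 held 13, and cells 3 and 8, just inside the rule, held 2 each, which is 1.86 and 1.52 molecules per 10000 gene molecules of the cell. The limit that a count of 0 allows (3 molecules of the cell's total) was 3.13, 2.50 and 4.19 per 10000 in cells 2, 4 and 7. The Crh-undetected cells could therefore hold Crh at the level of cells 3 and 8 without its being counted. The totals were 10730, 26466, 13176 and 7827 gene molecules in Crh-detected cells 3, 5, 8 and 9, and 9573, 12024 and 7160 in Crh-undetected cells 2, 4 and 7. Cell 7 is the kept cell nearest the minimum, and the left-out cell nearest to it, cell 6, had 3393. Cell 9 was the only kept cell on lane 4, with 614 spike-in molecules against 1962 to 2184 in the other 6, so lane and cell cannot be told apart there. Genes with a molecule had a median of 3783.5 in Crh-detected and 2563 in Crh-undetected cells, and 2841 and 2563 after every cell was thinned to 7160 molecules. The mitochondrial share was 4.31% to 16.5% on the Crh-detected and 7.25% to 22.6% on the Crh-undetected side.

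Markers of other cell types were not spread evenly over the sides. Summed oligodendrocyte markers took 2.56% of the molecules of cell 5 and at most 0.0419% of the other kept cells, and ependymal and tanycyte markers took 2.81% of cell 8 and at most 0.0793% of the others. Both of these cells are Crh-detected. Summed endothelial markers took 1.70% of cell 4 and 1.19% of cell 7, both Crh-undetected, and 0% to 0.0911% of the other 5 cells. Blood markers took 20.9% of cell 4, led by globin genes such as Hbb-bs, and at most 0.0522% of any other kept cell. Neuron markers were present in every kept cell, at 0.334% to 1.78% on the Crh-detected and 0.341% to 2.12% on the Crh-undetected side. In cells 4 and 7 most of these molecules were Meg3 and Snhg11, with 28 and 4 of 41 and 75 and 56 of 152. In cell 3 they gave 69 and 53 of 191. The next most abundant markers were nearly absent from cells 4 and 7: Stmn3 had 0 and 0 molecules and Gap43 1 and 0. The other 5 cells held 8 to 61 of Stmn3 and 7 to 20 of Gap43. Cells 3 and 9 on the Crh-detected side and cell 2 on the other were thus the cells without a large share of another type's markers. The part of these markers in the differences below was not tested. Counts without cells 4, 5, 7 and 8 are given, but leaving out cells cannot make a called gene overlap.

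**Figure D1:**
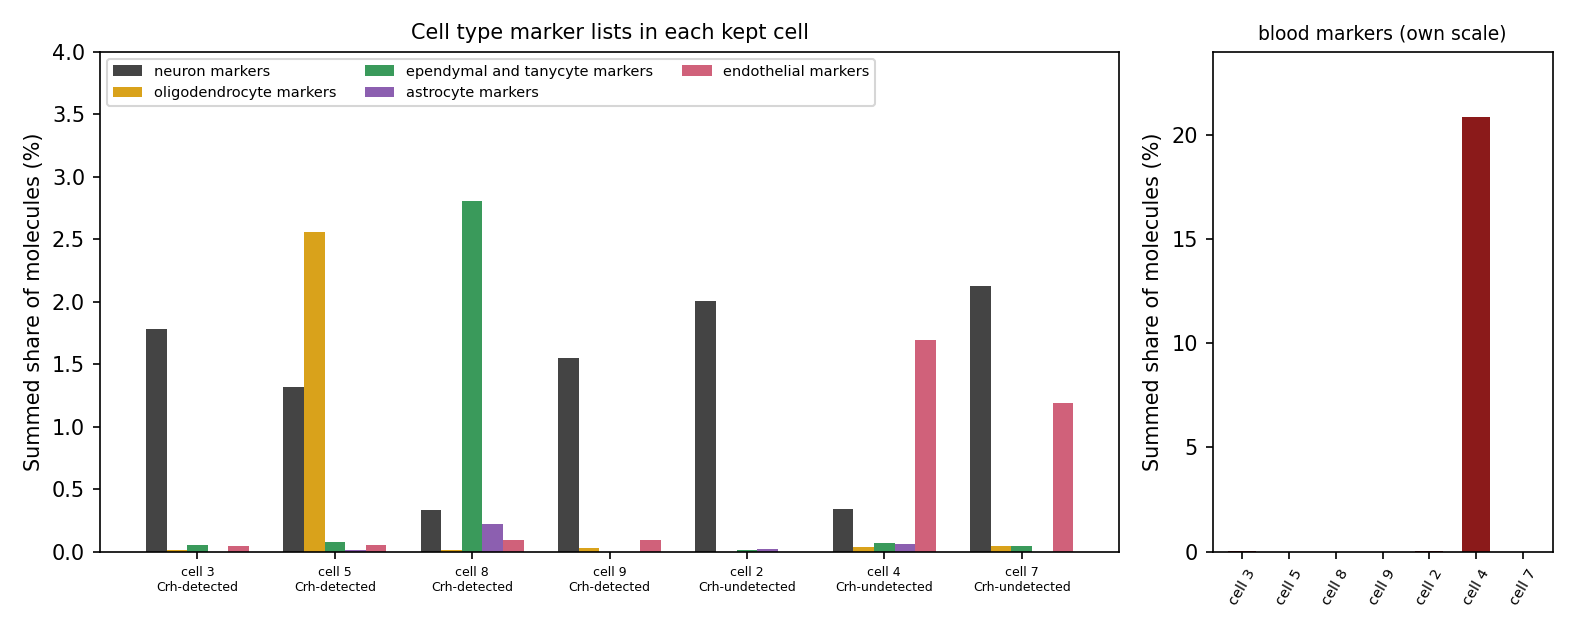
Summed share of molecules (%) of cell type marker lists in the 7 kept cells, with blood markers on their own scale at the right; each bar is 1 list in 1 cell. Oligodendrocyte markers stand out in cell 5 (2.56%), ependymal and tanycyte markers in cell 8 (2.81%), endothelial markers in cells 4 and 7 (1.70% and 1.19%) and blood markers in cell 4 (20.9%).

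Tuba1a, Tecr, Gapdh, Gstp1 and Scg5 had the largest differences of means among genes higher in Crh-detected cells, outside mitochondrial and ribosomal-protein genes. Klf4, Myl6 and Dusp6 were among the few that were higher in Crh-undetected cells. A gene was called when every cell of a side lay above every cell of the other side and the means of the cells, in molecules per 10000, differed by at least 2-fold. Among the 1753 genes with at least 10 molecules over the 7 cells, 99 were called higher in Crh-detected cells (5.65%) and 16 higher in Crh-undetected cells (0.913%). Without the fold minimum, 109 (6.22%) and 17 (0.97%) had sides that did not overlap. Of the 99, 24 had no molecule in any Crh-undetected cell and 44 had 1 to 3 there in all. The minimum of 10 molecules was set on counts pooled over 58199 molecules of Crh-detected and 28757 of Crh-undetected cells. Genes higher on the deeper side therefore passed it more easily. The median gene tested was itself higher on the Crh-detected side, by 0.38 on the log2 scale with a pseudocount of 1 per 10000. When the Crh-undetected levels were raised so that this median was 0, 28 genes were called higher in Crh-detected and 39 higher in Crh-undetected cells, so the balance of 99 to 16 rests on the scaling. The 28 were all among the 99, and the 39 held all of the 16. After thinning every cell to 7160 molecules the counts were 39 and 5, with 939 genes tested.

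Single cells also moved these counts. Without cell 8 the 99 became 194, and without cell 2 it became 223. The 16 became 73 without cell 2 and 67 without cell 4. Fewer cells make it easier for the sides not to overlap. A gene already called cannot come to overlap when a cell is left out. Its call can end only through the fold minimum, the minimum count or the level that 0 allows. On those terms 49 of the 99 and 6 of the 16 kept their call whichever of the 7 cells was left out. Whether the genes would separate the sides in other cells was not tested. Without cells 4, 5, 7 and 8, which leaves cells 3 and 9 against cell 2, 33 of the 99 and 2 of the 16 were still called, with 559 genes tested. In that setting 24.2% of all genes tested were called higher in Crh-detected and 21.3% higher in Crh-undetected cells. A kept call there therefore says little. For a gene at 0 on a side, leaving out a cell also raises the level that 0 allows, which by itself can end a call. After centring, Srp14, Ssr1, Pcsk2, Map2, Prdx1, Stip1, Cct5, Erp29, Ndufa12, Nrn1, Gm12191 and Gm15421 kept their calls, and the other genes described below as called higher in Crh-detected cells lost them. Thinning ended the calls of Sec61g, Spcs1, Calr, Ndn, Nnat, Dlk1, Gapdh, Cox8a, Rps28, Rpl39, Rps21, Rpl22l1, Fau, Stip1 and Hsph1. Over both directions, 15 of the named called genes kept the call after thinning and 20 lost it. The rest had too few molecules left to be tested, so a gene not listed need not have kept its call.

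**Figure D2:**
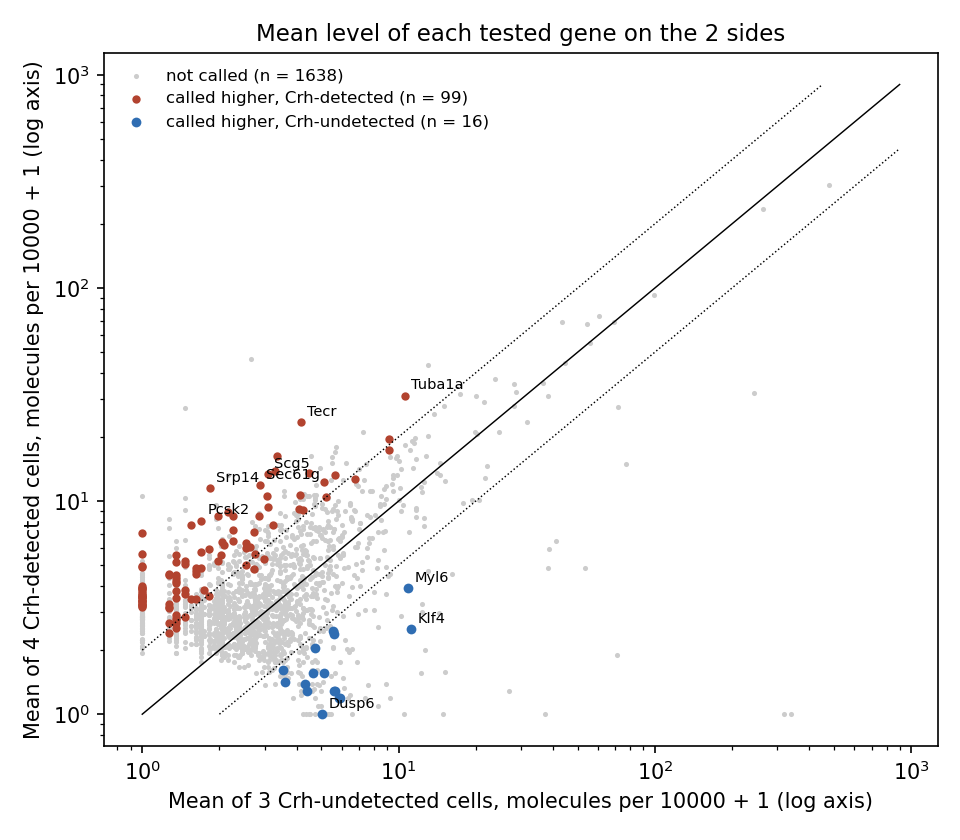
Mean level of each of the 1753 genes tested in the 4 Crh-detected cells (y axis) against the 3 Crh-undetected cells (x axis), in molecules per 10000 plus 1 on log axes; the solid line marks equality and the dotted lines 2-fold. The 99 genes called higher in Crh-detected cells (red) lie above the upper dotted line or close to it, since 1 is added to both axes, and the 16 called the other way (blue) lie below equality.

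Genes that bring new peptides into the ER and fold them were higher as a group in Crh-detected cells. The list holds the translocation channel, the signal peptidase, the glycosylation complex, chaperones and disulphide isomerases. Like the other lists used here, it was chosen with earlier results of these data known. Its counts beside those of all genes are therefore a description and no independent support. Its 30 members together took 1.24%, 0.982%, 0.804% and 1.34% of molecules in cells 3, 5, 8 and 9. In cells 2, 4 and 7 they took 0.554%, 0.241% and 0.265%. The sides did not overlap, and the mean shares were 1.09% ± 0.244 (SD, n = 4 cells) and 0.353% ± 0.174 (SD, n = 3 cells), a ratio of 3.09. Of the 21 members tested, 20 had the higher mean on the Crh-detected side, beside 67.1% of all genes tested. Of the 21, 6 were called higher there and 0 the other way, beside 5.65% and 0.913% of all genes tested. Their median log2 ratio was 1.24 against 0.38 over all genes, and 0.92 against 0 after centring on the median gene. Centring left a ratio of 2.09, and the share of cell 2 (0.818% on that scale) then passed that of cell 8. Cells 3 and 9 also stood above cell 2 with a ratio of 2.33 when cells 4, 5, 7 and 8 were left out.

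Srp14, a subunit of the signal recognition particle that docks ribosomes at the ER, is not on that list and was named by its size of difference. The gene spans 118475850 to 118479711 of chromosome 2 (GRCm38/mm10, minus strand). Its level was 13.0, 4.91, 7.59 and 16.6 molecules per 10000 in Crh-detected cells 3, 5, 8 and 9. Crh-undetected cell 4 held 2.50 per 10000, from 3 molecules, and cells 2 and 7 held none. The pooled counts of the sides gave a ratio of 8.24 (95% counting interval 2.66 to 41.3). Srp14 kept its call under every alternative run for it.

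Sec61g, a small subunit of the ER translocation channel (chromosome 11, 16500530 to 16508484, minus strand), had 11.2, 3.78, 10.6 and 17.9 molecules per 10000 in cells 3, 5, 8 and 9. Cells 2 and 4 had 3.13 and 2.50 and cell 7 had none. Cell 5 was only just above cell 2, and the mean of the cells was 5.79-fold higher on the Crh-detected side. Spcs1, a subunit of the signal peptidase that trims the leader peptide, had 14.0, 9.82, 5.31 and 2.56 per 10000 on the Crh-detected side and 2.09, 0 and 1.40 in cells 2, 4 and 7. Here it was cell 9 that lay close to cell 2, although it was the highest cell for Sec61g. Ssr1, a subunit of the translocon-associated complex, had 7.46, 3.78, 1.52 and 1.28 per 10000 against a single molecule in cell 4. Without cell 4 the other side of Ssr1 is at 0, and the log2 ratio goes from 1.82 to 2.17, but the level that 0 allows is then too high for a 2-fold call. Rpn2, of the enzyme that adds N-glycans, had 1.52 to 3.83 per 10000 against a single molecule in cell 2. Without cell 2 its log2 ratio goes from 1.38 to 1.81, and its call ends in the same way, through the level that 0 allows.

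Of the folding factors on the list, 2 were called, and the most abundant ones were not. Calr, which encodes the lectin chaperone calreticulin, had 4.66, 2.27, 4.55 and 3.83 molecules per 10000 in cells 3, 5, 8 and 9, and of the other cells only cell 2 held it, at 2.09. Pdia3, a disulphide isomerase of glycoproteins, had 1.52 to 4.16 per 10000 on the Crh-detected side and 1 molecule, 1.40 per 10000, in cell 7. For these genes the other side rests on 1 or 2 molecules: the pooled ratio was 4.94 for Calr (interval 1.20 to 43.6) and 8.89 for Pdia3 (interval 1.40 to 371). Hsp90b1 and Hspa5, the abundant ER chaperones, were not called. Hsp90b1 had 19.6, 15.1, 4.55 and 14.1 per 10000 against 6.27, 4.16 and 1.40, so cell 8 fell below cell 2. Hspa5 had 12.1, 9.45, 3.79 and 12.8 against 3.13, 1.66 and 5.59, with cell 8 below cell 7. Erp29, an ER folding factor outside the list and picked out after its values were seen, had 9.32, 5.67, 6.07 and 8.94 per 10000 against 2.09, 0.832 and 0.

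**Figure D3:**
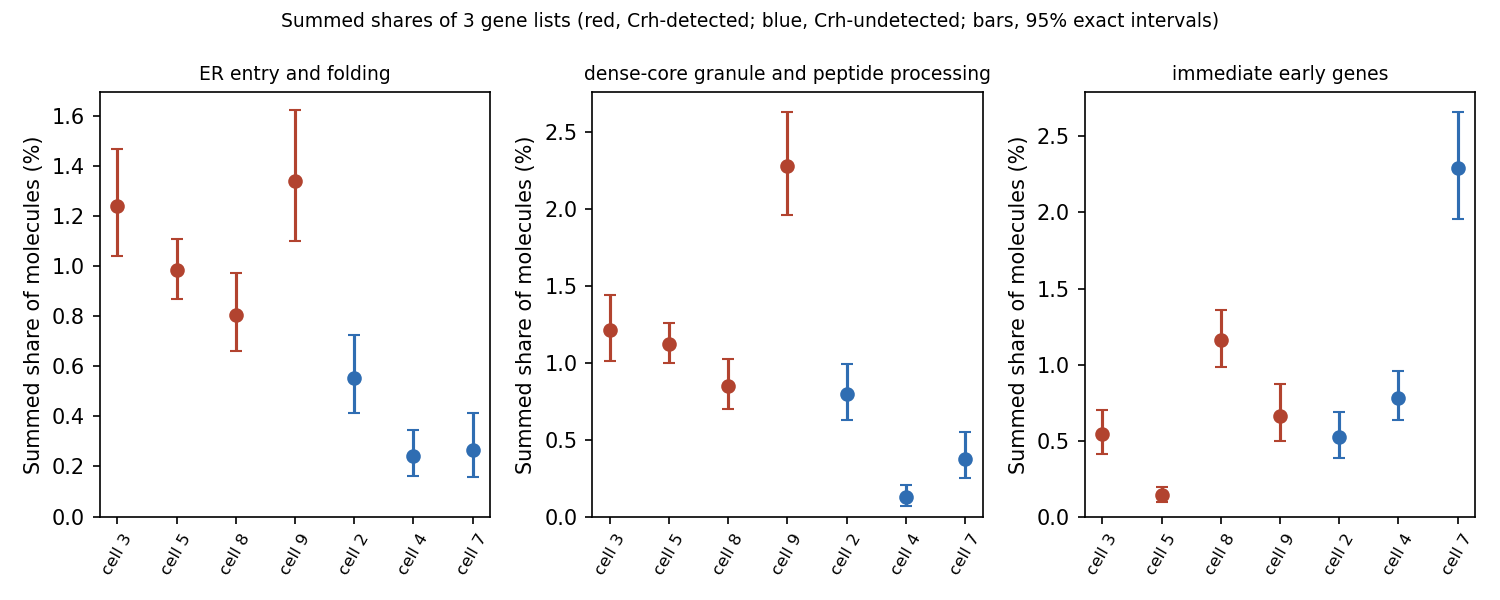
Summed share of molecules (%) of 3 gene lists in each kept cell, Crh-detected cells in red and Crh-undetected cells in blue, with 95% exact binomial intervals that cover counting error only. For ER entry and folding the Crh-detected cells (0.804% to 1.34%) lie above the others (0.241% to 0.554%); the dense-core granule shares of cells 8 and 2 (0.850% and 0.794%) nearly touch, and immediate early genes overlap.

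Genes of dense-core granules and peptide processing were also higher in Crh-detected cells, with cell 2 close behind. This list too was chosen with earlier results of these data known, so its counts are a description only. The 26 members together took 1.21%, 1.12%, 0.850% and 2.27% of molecules in cells 3, 5, 8 and 9. In cells 2, 4 and 7 they took 0.794%, 0.125% and 0.377%. The gap between cells 8 and 2 was smaller than their counting intervals (0.700% to 1.02% and 0.626% to 0.993%), so the sides were separated by less than the counting error. All 16 members tested had the higher mean on the Crh-detected side, beside 67.1% of all genes tested, and 3 were called, beside 5.65%. The median log2 ratio was 1.17, and 0.83 after centring, when 14 of the 16 were above 0 and 1 was called. The summed shares then overlapped, since cell 2 reached 1.17% on that scale against 0.850% in cell 8, and the ratio of means was 2.14 in place of 3.16.

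Scg5, which encodes 7B2, the chaperone of prohormone convertase PC2, lies on chromosome 2 at 113776362 to 113829121 (minus strand). It had 12.1, 10.6, 7.59 and 19.2 molecules per 10000 in cells 3, 5, 8 and 9, and 6.27 in cell 2, with none in cells 4 and 7. Pcsk2, the gene of PC2 itself (chromosome 2, 143546156 to 143816285, plus strand), had 4.66, 4.91, 9.87 and 8.94 per 10000, and 2.09 in cell 2, again with none in cells 4 and 7. For both genes cell 2, the Crh-undetected cell without a large share of another type's markers, was the only one of its side with a molecule. Scg3, which encodes secretogranin III of the granule membrane, had 7.46, 1.51, 3.04 and 6.39 per 10000, and 1 molecule, 1.04 per 10000, in cell 2. Pooled over cells, the ratio was 5.44 for Scg5 (interval 2.37 to 15.3), 9.39 for Pcsk2 (interval 2.43 to 80.3) and 10.4 for Scg3 (interval 1.67 to 429). Pcsk2 alone of the 3 stayed called after centring.

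Other granule genes had higher means in Crh-detected cells but overlapped. Resp18, a neuroendocrine granule protein, had 45.7, 40.4, 16.7 and 66.4 molecules per 10000 against 33.4, 0 and 2.79 in cells 2, 4 and 7. Scg2, a granin, had 14.9, 7.93, 5.31 and 47.3 against 16.7, 2.50 and 5.59, so only cell 9 stood above cell 2. Cst3, a secreted protease inhibitor, had 9.32 to 21.7 against 1.04, 5.82 and 12.6. Cpe, the carboxypeptidase that trims cut peptides, was picked out after its values were seen. It had 8.69, 16.7 and 21.7 per 10000 in cells 5, 8 and 9, but 1.86 in cell 3 against 2.09 in cell 2, which alone kept it from being called. Chgb, the gene of chromogranin B, had 12 molecules in Crh-detected cells 3, 5 and 9 together and none in cell 8 or in the Crh-undetected cells.

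Promoter windows of 5 of the called secretory genes are shown to give the sequence at their starts; that these genes separate the same cells is fixed by the call rule and is no sign of a shared element. The windows, from RefSeq (GRCm38.p6), run from 250 bases before to 50 after the annotated start and are written 5′ to 3′ on the gene's strand. Capitals mark matches, on either strand, of the ER stress response element (CCAAT and CCACG with 9 free bases between them, fixed letters only), the cAMP response element TGACGTCA or the E-box CACGTG.
Srp14, chr2:118479647-118479946, minus strand: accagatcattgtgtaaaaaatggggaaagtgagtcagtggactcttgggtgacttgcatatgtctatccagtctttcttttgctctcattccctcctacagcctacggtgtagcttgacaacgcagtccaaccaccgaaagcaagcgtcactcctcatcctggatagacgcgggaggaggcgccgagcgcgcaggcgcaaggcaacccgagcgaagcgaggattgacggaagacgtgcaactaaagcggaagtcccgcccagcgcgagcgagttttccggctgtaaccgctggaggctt
Scg5, chr2:113829042-113829341, minus strand: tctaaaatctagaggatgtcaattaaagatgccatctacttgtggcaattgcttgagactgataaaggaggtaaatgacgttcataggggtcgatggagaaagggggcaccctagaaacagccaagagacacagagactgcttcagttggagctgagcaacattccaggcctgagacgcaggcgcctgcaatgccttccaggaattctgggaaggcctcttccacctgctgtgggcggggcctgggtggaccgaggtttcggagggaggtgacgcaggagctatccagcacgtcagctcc
Pcsk2, chr2:143545883-143546182, plus strand: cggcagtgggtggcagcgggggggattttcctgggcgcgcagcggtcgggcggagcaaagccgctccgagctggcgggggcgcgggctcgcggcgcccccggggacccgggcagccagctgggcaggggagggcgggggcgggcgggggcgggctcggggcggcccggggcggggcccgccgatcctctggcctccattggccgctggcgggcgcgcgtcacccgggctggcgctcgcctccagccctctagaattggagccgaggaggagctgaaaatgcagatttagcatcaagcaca
Calr, chr8:84846882-84847181, minus strand: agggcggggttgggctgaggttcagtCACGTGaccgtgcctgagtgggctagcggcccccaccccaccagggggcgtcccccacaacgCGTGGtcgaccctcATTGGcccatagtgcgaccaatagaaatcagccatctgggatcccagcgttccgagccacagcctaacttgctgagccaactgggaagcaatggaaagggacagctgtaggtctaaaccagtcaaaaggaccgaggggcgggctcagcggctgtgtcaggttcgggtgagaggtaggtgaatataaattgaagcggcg
Ssr1, chr13:37994159-37994458, minus strand: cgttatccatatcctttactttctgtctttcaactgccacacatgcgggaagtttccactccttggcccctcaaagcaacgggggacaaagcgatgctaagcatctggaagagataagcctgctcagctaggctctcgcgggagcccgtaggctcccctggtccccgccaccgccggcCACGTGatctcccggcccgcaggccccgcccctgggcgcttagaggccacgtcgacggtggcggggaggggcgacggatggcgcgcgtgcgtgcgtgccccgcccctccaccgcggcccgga
The Calr window holds an ER stress response element and an E-box, the Ssr1 window an E-box, and the other windows none of the 3 motifs. The ER element was found in 0.119% of all 32851 windows, the cAMP element in 1.79% and the E-box in 7.15%. Windows were found for 1311 of the 1753 genes tested and 79 of the 99 genes called higher in Crh-detected cells. Of those 79, 1 had the ER element (1.27%, against 0.534% of the genes tested), 2 the cAMP element (2.53% against 5.42%) and 13 the E-box (16.5% against 13.3%). A match is a run of letters and no measure of binding.

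Peptide hormone genes themselves overlapped between the sides. Of the 38 listed, 4 were tested and none was called, beside 5.65% and 0.913% of all genes tested. At those shares so few genes would seldom give a call. Sst, the somatostatin gene, was highest in 1 cell of each side, with 103 molecules per 10000 in Crh-detected cell 3 and 40.5 in Crh-undetected cell 7. Oxt, the oxytocin gene, had 4.66, 3.02, 0 and 6.39 per 10000 in cells 3, 5, 8 and 9 and 3.13, 4.16 and 9.78 in cells 2, 4 and 7. Tac1, the substance P precursor gene, lay almost wholly in cell 2, with 11 of its 12 molecules. Cartpt, with 8 molecules in cell 3 and 3 in cell 8, Pmch, with 5 in cell 9 and 2 in cell 5, and Nmb, with 5 in cell 8, had none in the Crh-undetected cells. Avp, the vasopressin gene, reached 6 molecules (cell 9), with 2 more counted for cell 5 and 1 for cell 4. None of these peptides was thus found in all 4 Crh-detected cells. Scgn, by which all cells are labelled, had 10.3, 0.378, 2.28 and 1.28 per 10000 in the Crh-detected cells, 1.04 in cell 2 and none in cells 4 and 7. It was not called, since cell 5 lay below cell 2.

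A list of transcription factors that mark or build the paraventricular nucleus, joined by Ndn, was few in molecules but summed higher in Crh-detected cells. The 11 listed took 0.158%, 0.113%, 0.129% and 0.307% of molecules in cells 3, 5, 8 and 9 and 0.0836%, 0.00832% and 0.0559% in cells 2, 4 and 7. The sides did not overlap, but the counting interval of cell 2 (0.0361% to 0.165%) takes in the shares of cells 3, 5 and 8. The centring factor, 0.564 on the log2 scale, would also lift cell 2 above cell 5. Of the 3 members tested, 1 was called, beside 5.65% of all genes. It was Ndn, an imprinted growth regulator of hypothalamic neurons that is also on the list of imprinted genes. Ndn gave 13 of 17, 23 of 30, 10 of 17 and 13 of 24 molecules of the list in cells 3, 5, 8 and 9. In cells 2, 4 and 7 it gave 7 of 8, 1 of 1 and 3 of 4. The summed shares are thus mostly those of Ndn and say little of the other members. Ndn had 12.1, 8.69, 7.59 and 16.6 per 10000 against 7.31, 0.832 and 4.19, so cell 8 was only just above cell 2. Ndn lost its call without cell 4, without cells 4, 5, 7 and 8, after thinning and after centring. Pou3f2, a POU-domain factor of these neurons, had 2.80, 0.756, 1.52 and 2.56 per 10000 against a single molecule in cell 2. Arnt2, the partner of Sim1, was counted only in cells 8 and 9 of the kept cells, with 4 and 7 molecules. The 22 factors of other forebrain and hypothalamic neurons had 0 members with enough molecules, and 8 of their 14 molecules lay in cell 2.

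Among the genes of Crh signalling and glucocorticoid feedback, 7 of 22 were tested. Of these, 1 was called higher in Crh-undetected cells, beside 0.913% of all genes, and 0 the other way, beside 5.65%. Tsc22d3, which glucocorticoids induce in many tissues, was called higher in Crh-undetected cells, at 3.13, 4.99 and 2.79 molecules per 10000 in cells 2, 4 and 7. It had 0.756 and 1.52 per 10000 in cells 5 and 8, from 2 molecules each, and none in cells 3 and 9. Nr3c1, the glucocorticoid receptor gene, overlapped, with 7.46, 3.02, 2.28 and 1.28 against 0, 0.832 and 5.59. Hsp90ab1, whose product holds the receptor ready for hormone, had 44.7, 45.3, 20.5 and 34.5 against 23.0, 28.3 and 16.8 and also overlapped.

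Imprinted genes of neurons went both ways. Their summed shares overlapped, with means of 1.08% in Crh-detected and 1.16% in Crh-undetected cells. Of 11 tested, 3 were called higher in Crh-detected cells, beside 5.65% of all genes: Ndn, Nnat and Dlk1. Nnat, which encodes the small ER membrane protein neuronatin, had 6.52, 6.05, 27.3 and 10.2 molecules per 10000 against 3.13, 1.66 and 5.59. Dlk1, a Notch-like membrane protein, had 1.52 to 6.39 per 10000 on the Crh-detected side and 1.04, 0.832 and 0 in cells 2, 4 and 7. All 3 lost the call after thinning and after centring. Meg3, a long non-coding RNA expressed from the same imprinted domain as Dlk1, had the lower mean in Crh-detected cells. Its levels were 64.3, 15.5, 9.11 and 17.9 per 10000 against 83.6, 23.3 and 105, so cell 3 lay among the Crh-undetected cells and the sides overlapped.

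Several genes of the cytoskeleton and of basic metabolism were called higher in Crh-detected cells. Tuba1a, the alpha-tubulin of growing neurons, showed the largest difference of means of the 99 called genes, with 20.5, 37.8, 33.4 and 29.4 molecules per 10000 in cells 3, 5, 8 and 9 and 15.7, 7.49 and 5.59 in cells 2, 4 and 7. The mean of cells was 3.16-fold higher, and the call was lost after centring and without cells 4, 5, 7 and 8. Map2, of dendritic microtubules, had 2.28 to 6.39 per 10000 against 1 molecule in cell 4. Without cell 4 its log2 ratio goes from 1.83 to 2.18, and the call ends only through the level that 0 allows. Tuba4a had 0.932 to 6.42 per 10000 and no molecule on the other side. Against the 3 molecules that 0 allows over the 28757 of that side, its mean was at least 2.74-fold higher. That bound falls under 2-fold without cell 2 or cell 4. Of the 22 Tuba4a molecules, 17 lay in cell 5, and without that cell the gene fell below the minimum of 10 molecules. In all, 3 of 25 tested cytoskeleton genes were called, beside 5.65% of all genes. The summed shares overlapped, with 1.01% in cell 8 and 1.68% in cell 2, and 20 of 25 had the higher mean in Crh-detected cells, against 67.1% of all genes tested.

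Tecr, an enzyme of very-long-chain fatty acid synthesis, had 20.5, 20.4, 4.55 and 44.7 molecules per 10000 against 4.18, 2.50 and 2.79. Cells 3, 5 and 9 stood far above the rest, and cell 8 was barely above cell 2. Gapdh, of glycolysis, also had its lowest Crh-detected level in cell 8, with 18.6, 26.1, 4.55 and 11.5 against 3.13, 2.50 and 1.40. It was the 1 called gene of 11 tested glycolysis genes (beside 5.65% of all genes). All 11 had the higher mean on the Crh-detected side, beside 67.1% of all genes tested. The summed glycolysis shares overlapped, since cell 8 (0.357%) lay below cell 2 (0.533%). Gstp1, which conjugates glutathione, had 19.6, 6.42, 7.59 and 17.9 against 5.22, 1.66 and 0, and Prdx1, a peroxidase, had 7.67 to 12.1 against 1.40 to 3.13. The Prdx1 levels of the 4 Crh-detected cells lay closer together than those of the other genes in this paragraph, and Prdx1 kept its call after centring.

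The summed share of nuclear respiratory chain genes did not separate the sides. Of 34 tested, 27 had the higher mean in Crh-detected cells, beside 67.1% of all genes tested, and 2 were called, Cox8a and Uqcrc1, beside 5.65%. Cell 2 had the highest summed share of all 7 cells, 3.11%. Cox8a, a subunit of cytochrome oxidase, had 8.94 to 14.4 molecules per 10000 against 8.36, 0 and 5.59, and lost its call without cell 4. Uqcrc1, a core subunit of complex III, had 0.759 to 5.59 per 10000 and none on the other side, and its call ended without cell 2, 4 or 7 through the level that 0 allows. Ndufa12 and Ndufa5, of complex I, and Cox14, an assembly factor of cytochrome oxidase, were also called higher in Crh-detected cells; they are outside the list and were chosen with their values known, with means of 4.77, 8.41 and 1.83 per 10000 against 0.696, 2.09 and 0.348. Ribosomal-protein genes gave 7 called of 75 tested, beside 5.65% of all genes, among them Rps28, Rpl39, Rps21 and Rpl22l1. Rps28 had 15.2 to 22.7 per 10000 against 6.98 to 9.15, and the mean was 2.27-fold higher. Rpl39 lost its call without cell 3, 4, 7 or 9, and Rps21 without cell 2, 5 or 7. The summed share of ribosomal-protein genes was 3.97% to 5.68% in Crh-detected and 2.93% to 3.82% in Crh-undetected cells. These sides did not overlap either, as was so for 3 of the 27 lists, so separation was not particular to secretory genes. The counting intervals of the nearest cells, 9 (3.55% to 4.43%) and 2 (3.45% to 4.23%), did overlap. Fau, which encodes a ribosomal protein joined to a ubiquitin-like protein, had 13.0 to 19.2 per 10000 against 12.5, 4.99 and 6.98; its ratio of 2.01 was at the minimum, and the call was lost without any of cells 4, 5, 7, 8 or 9.

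Chaperones of the cytosol gave 3 called of 18 tested, beside 5.65% of all genes, and their summed shares overlapped. Stip1, which links Hsp70 to Hsp90, had 1.86, 1.13, 1.52 and 14.1 molecules per 10000 and none on the other side, so most of its mean came from cell 9. Cct5, a subunit of the chaperonin that folds actin and tubulin, had 5.59, 5.67, 4.55 and 8.94 against 2.09, 1.66 and 1.40, and kept its call under every alternative run for it. Hsph1, a cofactor of Hsp70, had 3.40 to 7.67 against 0, 2.50 and 2.79, and lost its call without cell 2, where its log2 ratio was 0.63. The abundant Hspa8 and Hsp90aa1 overlapped between the sides. The 3 called rows Gm12191, Gm15421 and Gm5643 are annotated as processed pseudogenes, which can share reads with their parent genes, so their levels are uncertain.

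**Figure D4:**
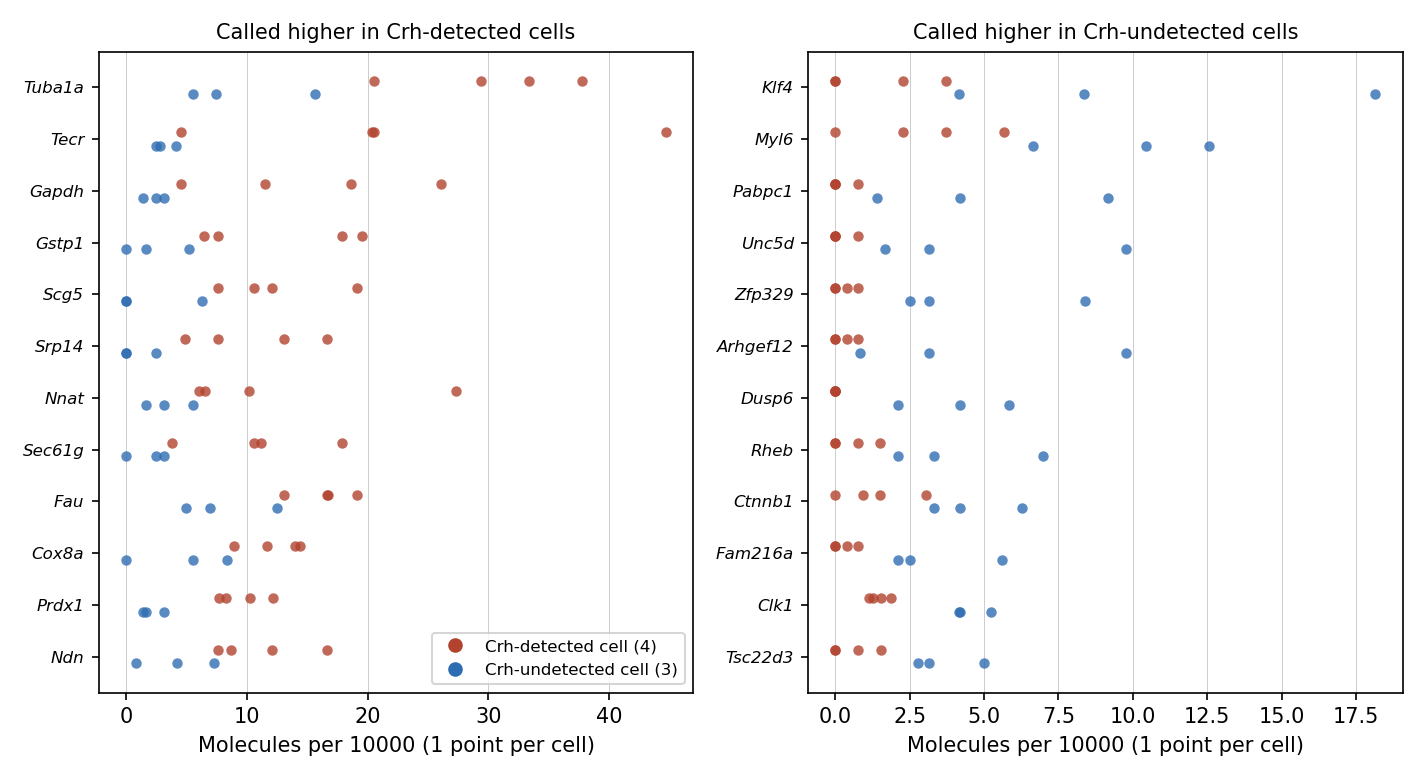
Molecules per 10000 in each kept cell (1 point per cell; red, Crh-detected; blue, Crh-undetected) for the 12 called genes with the largest difference of means in each direction, outside mitochondrial and ribosomal-protein genes. In every row the points of the colours do not overlap, which the call requires; for Fau, Ndn and Sec61g the nearest cells of the sides almost touch, while Dusp6 has no molecule in any Crh-detected cell.

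The 16 genes called higher in Crh-undetected cells held regulators of signalling, splicing and growth, at low counts. Klf4, a zinc-finger factor induced with the immediate early genes, led the differences (chromosome 4, 55527143 to 55532466, minus strand). It had 8.36, 4.16 and 18.2 molecules per 10000 in cells 2, 4 and 7, 3.73 and 2.28 in cells 3 and 8, and none in cells 5 and 9. Cell 3 was thus just below cell 4, and the mean was 6.81-fold higher on the Crh-undetected side. Dusp6, a phosphatase that turns off ERK, had 2.09, 5.82 and 4.19 per 10000 and no molecule in 58199 on the Crh-detected side; against the 3 molecules that 0 allows, the mean was at least 7.83-fold higher. Myl6, a myosin light chain, had 10.4, 6.65 and 12.6 against 3.73, 5.67, 2.28 and 0 in cells 3, 5, 8 and 9.

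Pabpc1, the cytoplasmic poly(A)-binding protein, had 4.18, 9.15 and 1.40 molecules per 10000 in cells 2, 4 and 7 and 2 molecules in cell 5 alone of the Crh-detected cells. Unc5d, a netrin receptor family member, had 3.13, 1.66 and 9.78 against 1 molecule in cell 8. Ctnnb1, the beta-catenin gene, had 6.27, 3.33 and 4.19 against 0.932, 1.51, 3.04 and 0, and Clk1, a kinase of splicing factors, had 5.22, 4.16 and 4.19 against 1.13 to 1.86. The levels of Clk1 were close together within each side. Rheb, the small GTPase that activates mTOR, and Arhgef12, a guanine nucleotide exchange factor, had means of 4.13 and 4.58 per 10000 against 0.568 and 0.284. Zfp329 and Fam216a had means of 4.67 and 3.39 against 0.284 each. Spike-in scaling ended the calls of Myl6, Pabpc1, Ctnnb1, Clk1 and Rheb, and thinning those of Klf4, Myl6, Ctnnb1, Rheb and Arhgef12. Only 5 of the 16 stayed called after thinning, Unc5d and Zfp329 among them. Some of the others were left with too few molecules to be tested. Cells 4 and 7, which supply most of these molecules together with cell 2, are also the cells with endothelial markers. Whether those markers bear on the calls was not tested.

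Immediate early genes, which neuronal activity and tissue dissociation both induce, tended to the Crh-undetected side with wide overlap. Of 13 tested, 11 had the lower mean in Crh-detected cells, where 67.1% of all genes had the higher mean. The 1 called was Klf4, beside 0.913% of all genes, and the median log2 ratio was -0.41 against 0.38 for all genes. The summed share was 0.541%, 0.140%, 1.16% and 0.664% in cells 3, 5, 8 and 9 and 0.522%, 0.782% and 2.29% in cells 2, 4 and 7. Cell 7 thus stood highest, and cell 8 stood above cells 2 and 4. Fosb had 39.1 molecules per 10000 in cell 7 and 0.932 to 7.67 in the other 6 cells. Jun had 3.73, 1.89, 14.4 and 16.6 against 7.31, 16.6 and 34.9, and Fos had 19.6, 2.64, 25.8 and 6.39 against 10.4, 16.6 and 36.3.

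The lists for release, excitability and transmitters did not separate the sides. None of 19 tested exocytosis genes, 8 calcium-binding protein genes, 6 ionotropic receptor subunits, 6 voltage-gated and potassium channel genes, 4 GABA and glutamate genes or 1 hormone receptor gene was called in either direction. Over all genes tested the shares called were 5.65% and 0.913%. At those shares the lists of 1 or 4 genes would seldom give a call. For the 19 exocytosis genes, or for these lists pooled, at least 1 call would not be unusual. Snap25, a SNARE of vesicle fusion, reached 39 molecules in cell 5 and 6 in cell 2, and the others held 0 to 5. Calm2, a calmodulin gene, had 21.3 to 28.1 molecules per 10000 in Crh-detected cells and 34.5, 2.50 and 1.40 in cells 2, 4 and 7, so cell 2 was highest of all. Calb1, the calbindin gene, had 2.56 to 6.52 against 2.79 in cell 7 alone. Gad1 and Gad2, the GABA synthesis genes, had 19 and 16 molecules in cell 5 and 4 and 7 in cell 2, so that a cell of each side held both, and cell 4 had 2 of Gad1. For these lists, molecules per member were too few to tell a missing difference from a missed one.

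**Figure D5:**
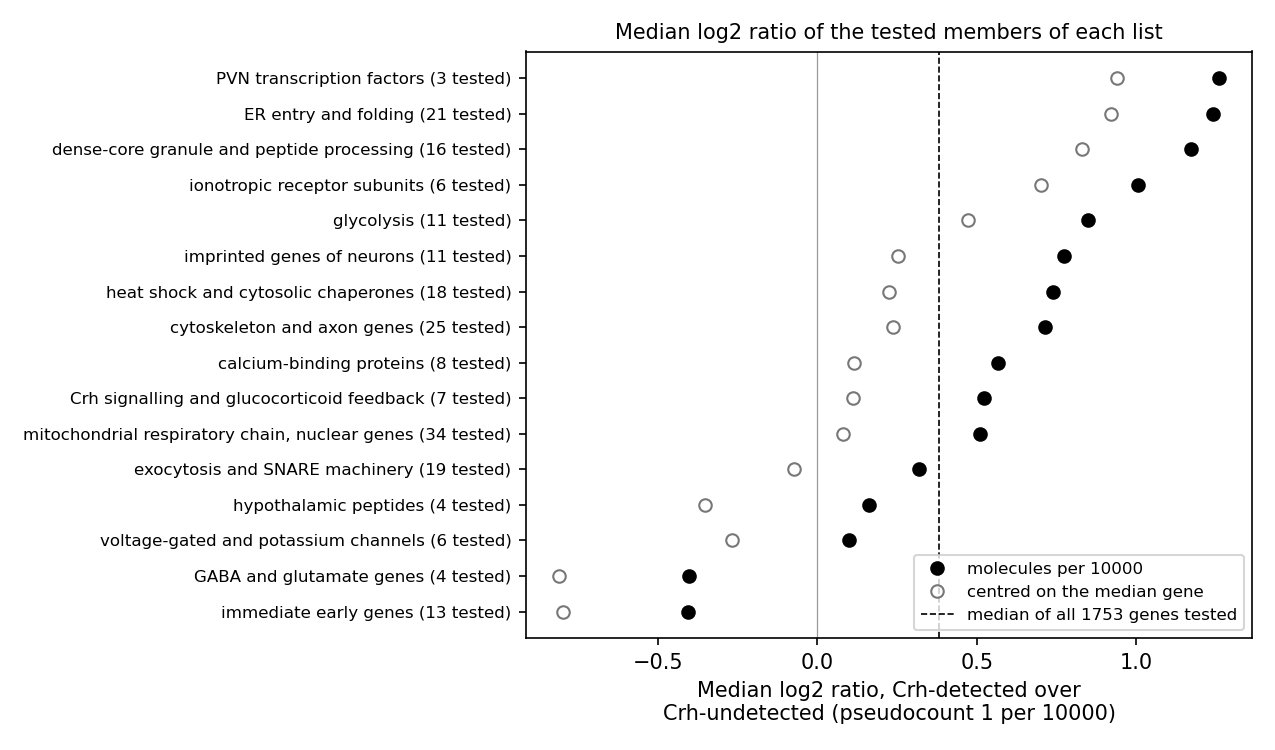
Median log2 ratio (Crh-detected over Crh-undetected, pseudocount 1 per 10000) of the tested members of each list with at least 3 of them, as molecules per 10000 (filled) and after centring on the median gene (open); the dashed line is the median of all genes, 0.38. ER entry and folding (1.24) and dense-core granule genes (1.17) lie right of the line and stay above 0 after centring, and immediate early genes (-0.41) lie at the left.

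Cell type markers were not called in either direction, although their means differed. Beside 5.65% and 0.913% of all genes tested, none of 12 tested neuron, 13 oligodendrocyte, 8 ependymal and tanycyte, 9 endothelial, 3 blood and 1 astrocyte markers was called. For the types other than neurons, most molecules lay in 1 or 2 cells of a side, so the requirement that the sides do not overlap left them out. Neuron markers lay in every kept cell, and their summed shares overlapped between the sides. Dbi, of the ependymal list, reached 231 molecules in cell 8, and Itm2a, of the endothelial list, 63 and 18 in cells 4 and 7.

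Cells 1 and 6, which had no Crh molecule but were too shallow to be kept, give a look at the called genes outside the cells that chose them. Together the 99 genes took 5.72%, 5.08%, 4.46% and 6.50% of molecules in cells 3, 5, 8 and 9 and 1.75%, 0.923% and 0.880% in cells 2, 4 and 7, a gap fixed by the choice of genes. They took 0.881% in cell 1 (9 of 1021 molecules, interval 0.404% to 1.67%) and 1.21% in cell 6 (41 of 3393, interval 0.869% to 1.64%). Both shares lay in the range of the Crh-undetected cells. The side of these cells is not known, however: a count of 0 allows up to 29.4 Crh molecules per 10000 in cell 1 and 8.84 in cell 6. Cell 9, the highest Crh-detected cell, had 24.3 and cell 5 had 4.91. The 16 genes of the other direction took 0% of cell 1 (interval up to 0.361%) and 0.413% of cell 6 (interval 0.226% to 0.691%). Cell 6 thus lay between the sides, and the interval of cell 1 takes in the Crh-detected shares of 0.0128% to 0.167%. The mitochondrial shares of these cells were high, 19.9% and 34.2%, and their ribosomal-protein shares low, 0.686% and 0.442%. The ER entry and folding list did not follow the summed called genes: it took 0.884% of cell 6, from 30 molecules, which is inside the range of the Crh-detected cells, and 1 molecule in cell 1.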

How the data were processed

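The authors deposited whole-number counts (molecules) per gene for 9 cells, with 24378 gene rows and 92 spike-in rows. Bowtie and mm10 are listed in the submitters' processing notes, with no role stated. The method and strand setting of the molecule counting are, in the sources used here, not given. Genes that overlap on opposite strands may therefore share molecules. Columns were matched to cells by the cell number in their names. The 27 rows with a date in place of a symbol (132 molecules) stayed in the totals and out of the comparison. Where a symbol had several numbered loci, each cell's largest locus count was taken. Levels are molecules per 10000 gene molecules, without spike-ins. Genes with at least 10 molecules over the 7 kept cells were compared by the call rule given in the text. A side at 0 was set to 3 molecules over its summed total. Intervals are exact Poisson, Clopper-Pearson or, for ratios of pooled counts, conditional binomial, at 95%; they cover counting error only. Doublets were not called in so few cells. The 27 gene lists and their members were chosen with earlier results of these data known. The named genes were the 12 called genes with the largest difference of means in each direction, up to 4 mitochondrial or ribosomal ones, called list members, the 4 most abundant members of each list, Scgn, and peptide genes with at least 5 molecules; not all are described, and a few are not reported here. Alternatives were other totals, spike-in scaling, thinning, other minimum counts and folds, 3 Crh molecules, all 9 cells, sums of loci, a pseudocount of 0.5 and left-out cells; centring was chosen after seeing the data, as was its use on summed shares. The call step was tested on simulated data. Gene positions are from GENCODE M21 (21996 of 23503 symbols found). The work used scipy 1.17.1, matplotlib 3.10.9, pandas 2.3.3 and numpy 2.4.6 under Python 3.11.15.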

Additional observations from a re-analysis of the deposited data

Results flagged for a closer look

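Of 116 measures examined over the 4 Crh-detected cells, 24 had 1 cell far from the other 3, by a gap above Dixon's critical share of their whole range. About 1 in 20 groups of normally distributed values passes this limit by chance, a rate that does not hold for low counts. A gene counted in only 1 of the 4 cells passes by construction, so the 24 cannot be set against that rate. Groups of 3, such as the Crh-undetected cells, were not examined. In molecules per 10000, cell 5 stood apart for the myelin genes Trf (38.2), Mal (17.0) and Apod (18.1), for Gad1 (7.18), Gad2 (6.05) and Glrb (4.91), and, at a few molecules, for Itm2a (1.13), Pabpc1 (0.756) and Tac1 (0.378). Cell 8 stood apart for the ependymal genes Dbi (175), Tmem212 (19.0) and Ccdc153 (18.2), for the astrocyte gene Gja1 (7.59), for Egr1 (37.2) and, with 1 molecule, for Unc5d (0.759). Cell 9 was high for Calm3 (20.4), Map2 (6.39), Hsph1 (7.67) and Stip1 (14.1). It was low for Uqcrh (1.28) and Ppia (5.11), and its 614 spike-in molecules were also far below those of the other 3. Cell 3 stood apart for Sst (103) and Meg3 (64.3). Of the genes called between the sides, Map2, Hsph1, Stip1, Pabpc1 and Unc5d are among these.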

How the results depend on the processing

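The count of 99 genes called higher in Crh-detected cells was 185 when scaled to spike-ins, 39 after thinning, 250 when 3 Crh molecules were required, 56 with at least 20 molecules and 28 after centring. It ranged from 86 to 223 when 1 cell was left out. The count of 16 for the other direction was 8 with spike-ins, 5 after thinning, 33 with 3 Crh molecules, 119 without cells 4, 5, 7 and 8, 4 with at least 20 molecules, 47 with no minimum, 39 after centring and 0 with all 9 cells, where cell 1 holds no molecule of the 16 genes; it ranged from 21 to 73 when 1 cell was left out. Totals without mitochondrial or globin genes, sums of loci and other fold minimums left both counts within 1.5 times. The ratio of summed ER shares was 2.09 after centring and 2.67 with all 9 cells, and that of granule shares 2.14 after centring; in these 3 cases the sides overlapped. With 1 cell left out the ratios ran from 2.67 to 4.31 and from 2.33 to 5.44. The median number of genes detected was 1856 in Crh-detected and 1194 in Crh-undetected cells when 2 molecules were required. Fewer cells or molecules change how many genes can be called by construction; other causes were not tested. Among called named genes none turned in direction under any alternative. No paired analysis was possible because the cells form a single labelled group with 1 number each. Depth limits the comparison to 1753 of the 9591 genes with a molecule.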

Other observations

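Molecules of Y-linked genes were counted on both sides: Ddx3y in cells 2, 3, 4, 5, 7 and 8, Eif2s3y in cells 2, 3, 4 and 5, Kdm5d in cells 5, 8 and 9, and Uty in cell 8. Every kept cell thus held at least 1. Tsix, the antisense partner of Xist, had 17 molecules in cell 5 and none elsewhere, and Xist had none in any cell. Cell 5 was therefore the only cell with Tsix, beside 5 molecules of Y-linked genes, and it is also the cell with the oligodendrocyte markers. With no stated strand setting, Tsix and Xist molecules cannot be told apart.

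Nrn1, a small secreted regulator of neurite growth called higher in Crh-detected cells, was picked out after its values were seen. It had 9.32, 1.89, 1.52 and 11.5 molecules per 10000 in cells 3, 5, 8 and 9 and none in the 3 Crh-undetected cells. Against the 3 molecules that 0 allows over that side, its mean was at least 5.81-fold higher, and it kept its call under thinning, spike-in scaling and both other totals. Dusp1, a stress-induced phosphatase, was close to a call in the other direction, with 5.22, 4.16 and 30.7 per 10000 in cells 2, 4 and 7 against 0.932, 0.378, 5.31 and 1.28, where cell 8 alone overlapped.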
